A study of Mus musculus with 12 samples.

Results

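The 9 genes described here, Tead4, Cdx2, Gata3, Gata2, Tcfap2c, Elf5, Ets2, Ascl2 and Dlx3, encode transcription factors of the trophoblast, the outer lineage of the mouse embryo that forms the placenta. They were taken as every probe whose gene name on the array is 1 of these names, which gave 1 probe for each gene, 9 of 55681 non-control probes under 36406 gene names. Of these 9 probes, 8 passed the filter on dim signals, among 22593 features tested in all. Elf5 did not pass and is given by its values alone.

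The study profiled RNA of mouse embryonic stem cells with 12 one-colour arrays, 4 in each of 3 groups. The Id1KO_Zrf1KD cells are the Id1 knockout line infected with lentiviral hairpins against Zrf1 and kept under puromycin, so they carry the Id1 knockout as well. The Id1KO cells are the same knockout line without the hairpin, and the WT cells are a wild-type line. All 3 groups grew in serum with LIF, the cytokine that maintains mouse embryonic stem cells. Cells with a control hairpin were not analysed here, and Zrf1 loss, infection and puromycin selection cannot be told apart. The labels describe 4 independent biological samples per group and name no separate lines or clones within a group. Eif2s3y, a Y-linked gene chosen after its values were seen, was well above background on 4 of 4 Id1KO_Zrf1KD arrays and 4 of 4 Id1KO arrays, against 1 of 4 WT arrays, and the genotype cannot be told apart from other differences between the lines.

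In the mouse blastocyst, TEAD4 with its YAP and TAZ coactivators, which the Hippo kinases hold out of the nucleus in inner cells, turns on Cdx2 and Gata3 in the outer cells. CDX2, GATA3, TFAP2C, ELF5 and ETS2 then hold the trophoblast stem cell state, and GATA2, ASCL2 and DLX3 act in the differentiated cells of the placenta. Embryonic stem cells come from the inner cells and normally keep several of these genes low. ID1 lacks a DNA-binding region and pairs with basic helix-loop-helix factors, which keeps them off DNA; among the 9, ASCL2 is such a factor. ZRF1, encoded by the gene listed on the array as Dnajc2, is a J-domain chaperone that also binds chromatin marked with ubiquitinated histone H2A.

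Each gene is read through a single probe of 60 bases, so its value is that of the part of the transcript the probe covers. The first 30 bases of each probe are shown with its position in build mm9, as the files give it, to identify what was measured; exon and UTR annotation of that build was not used here.
Tead4 probe (chr6:128177161-128177220, minus strand): ggacagtgcctcacacagtgctgagcacat
Cdx2 probe (chr5:148112547-148112606, minus strand): gccttttaaaaagccttcttgatccatggg
Gata3 probe (chr2:9779551-9779610, minus strand): ttaaggaatatagggggattaaagtatgga
Gata2 probe (chr6:88156362-88156421, plus strand): aactgcataagcttaacccgctgatgagtg
Tcfap2c probe (chr2:172383860-172383919, plus strand): tttatgcgagtgcacacagggtattgaaac
Elf5 probe (chr2:103290958-103291017, plus strand): tgtctagtgaccggcactgaatagcaatgc
Ets2 probe (chr16:95942227-95942286, plus strand): catggtgacctcagatcagcaagtgacatt
Ascl2 probe (chr7:150152734-150152793, minus strand): ggccagtgtgggaaccctgctgttgcaaag
Dlx3 probe (chr11:94986262-94986357, plus strand): ttttttagagcaaccaagagaagcaggtcc

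For the 6 members with an entry, RefSeq (GRCm38.p6) gives 8 windows of 250 bases upstream of a transcript start. The 6 windows below belong to 4 genes that were lower in Id1KO than in WT cells (Gata3, Gata2, Ets2 and Ascl2) and to Cdx2, which was well above background in the Id1KO_Zrf1KD cells alone. Capitals mark matches to CANNTG, the E-box that basic helix-loop-helix factors bind, and to GCCNNNGGC, the AP-2 motif, which was searched with overlaps allowed. Both motifs read the same on either strand.
Gata3 (chr2:9878601-9878850, minus strand): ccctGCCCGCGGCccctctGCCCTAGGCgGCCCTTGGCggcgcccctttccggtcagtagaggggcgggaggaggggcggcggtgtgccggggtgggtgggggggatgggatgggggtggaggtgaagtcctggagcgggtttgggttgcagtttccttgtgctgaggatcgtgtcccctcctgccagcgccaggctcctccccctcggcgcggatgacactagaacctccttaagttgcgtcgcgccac
Gata2, first start (chr6:88193641-88193890, plus strand): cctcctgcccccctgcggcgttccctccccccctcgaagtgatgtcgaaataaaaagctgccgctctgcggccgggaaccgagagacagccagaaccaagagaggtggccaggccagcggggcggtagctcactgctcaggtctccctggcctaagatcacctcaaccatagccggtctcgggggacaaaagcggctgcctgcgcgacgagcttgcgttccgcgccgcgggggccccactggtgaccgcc
Gata2, second start (chr6:88198414-88198663, plus strand): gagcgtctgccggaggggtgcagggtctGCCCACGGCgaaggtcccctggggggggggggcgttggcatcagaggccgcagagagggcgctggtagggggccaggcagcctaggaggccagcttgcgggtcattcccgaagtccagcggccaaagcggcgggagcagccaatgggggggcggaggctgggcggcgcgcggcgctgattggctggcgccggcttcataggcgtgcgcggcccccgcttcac
Ets2 (chr16:95702157-95702406, plus strand): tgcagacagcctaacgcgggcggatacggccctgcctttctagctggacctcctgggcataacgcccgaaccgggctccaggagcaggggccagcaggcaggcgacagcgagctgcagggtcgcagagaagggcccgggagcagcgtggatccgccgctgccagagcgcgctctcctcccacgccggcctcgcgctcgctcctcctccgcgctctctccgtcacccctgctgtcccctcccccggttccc
Cdx2 (chr5:147307250-147307499, minus strand): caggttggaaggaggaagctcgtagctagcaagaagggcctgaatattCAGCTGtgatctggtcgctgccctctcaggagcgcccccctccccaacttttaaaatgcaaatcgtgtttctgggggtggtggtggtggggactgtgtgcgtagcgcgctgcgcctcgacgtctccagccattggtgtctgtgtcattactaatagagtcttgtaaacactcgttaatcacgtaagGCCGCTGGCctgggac
Ascl2 (chr7:142969265-142969514, minus strand): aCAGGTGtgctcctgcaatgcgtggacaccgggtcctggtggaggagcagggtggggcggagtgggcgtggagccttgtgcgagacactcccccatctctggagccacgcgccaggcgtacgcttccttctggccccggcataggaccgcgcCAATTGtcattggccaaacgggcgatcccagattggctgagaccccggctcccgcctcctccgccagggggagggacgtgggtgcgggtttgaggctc
The windows of Gata3 and Ets2 and both windows of Gata2 held no CANNTG match, and those of Cdx2 and Ascl2 held 1 and 2. The 2 windows of Elf5, not shown, held 4 and 1. Of all 32851 windows in the table, 66.2% held at least 1. The 4 windows without a match were rich in G and C, at 70.0% for Gata3, 67.2% and 74.0% for Gata2 and 71.6% for Ets2, against a median of 52.4% over all windows. The Ascl2 window reached 67.6% and held matches. The Gata3 window held 3 AP-2 matches, and 13.7% of all windows held any. That motif is itself rich in G and C, and the share is not limited to windows as rich as this one. The windows of Cdx2 and of the second Gata2 start held 1 each, and those of Ets2, Ascl2 and the first Gata2 start held 0. The TEAD motif GGAATG, searched on both strands, was found once in the second Gata2 window and in none of the other 5 windows shown, and in 12.6% of all windows. A match is a description of these letters and does not show binding.

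Levels below are log2 units relative to the 75th percentile of each array's non-control spots, averaged over the spots of a probe. A negative level therefore lies below that percentile, and levels of different probes are not compared. Differences were tested with limma across all features, with adjusted p-values over all 22593 and a threshold of 0.05. Fold changes put the first-named group over the second.

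Tead4, the TEAD factor that acts at the top of the trophectoderm pathway, was lowest in Id1KO cells and highest in Id1KO_Zrf1KD cells. Its levels were -0.13, -0.15, -0.28 and -0.12 in Id1KO_Zrf1KD cells, -2.57, -2.47, -2.29 and -2.69 in Id1KO cells, and -1.5, -1.29, -1.36 and -1.35 in WT cells. The 3 groups did not overlap, and the order was the same on each of the 3 slides. Tead4 was 2.19-fold lower in Id1KO cells than in WT cells (log2 fold change -1.13 ± 0.08, SE, adjusted p = 2.8e-07). In Id1KO_Zrf1KD cells it was 2.30-fold higher than in WT cells (log2 fold change 1.20 ± 0.08, adjusted p = 2.1e-07). The log2 difference between Id1KO_Zrf1KD and Id1KO cells was 2.33 ± 0.08 (adjusted p = 1.3e-09), and 2.17, 2.55 and 2.24 within the slides. With the normexp background correction that rise was 3.13-fold instead of 5.05-fold.

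Cdx2, the homeobox factor that specifies the trophectoderm, was well above background on all 4 Id1KO_Zrf1KD arrays and on none of the 8 others. Its levels were -2.87, -2.64, -2.74 and -2.45 in Id1KO_Zrf1KD cells, -6.96, -5.35, -6.38 and -5.69 in Id1KO cells, and -5.48, -6.21, -5.11 and -5.97 in WT cells. The Id1KO and WT arrays overlapped and none was marked as well above background, so no fold change between these groups is given (adjusted p = 0.30). The Id1KO_Zrf1KD arrays stood apart from both. Cdx2 passed the filter only through the Id1KO_Zrf1KD arrays, and its fold changes are taken against a floor. The floor is each dim array's lowest signal of any probe marked as well above background, or Cdx2's own signal where that was higher. An unmarked signal can lie above that lowest signal, as Cdx2 did on WT replicate 3 (-5.11 against -5.29). The values against the floor are therefore approximate and not guaranteed minima. In the processed signal Cdx2 was 5.41-fold above the floor of the WT arrays. Other background corrections gave smaller values, 1.99-fold with normexp and 1.95-fold with the authors' deposited values. Against Id1KO cells it was 4.51-fold above the floor in the processed signal, 2.02-fold higher in the deposited values and 1.73-fold with normexp. No p-value is given for these values, since the filter kept Cdx2 only through the group where it was high. The values against the floor hold for the processed signal alone.

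Gata3, a zinc-finger factor that acts beside Cdx2 downstream of TEAD4, was low in Id1KO cells alone, and its levels in Id1KO_Zrf1KD and WT cells overlapped. Its levels were -1.36, -1.17, -1.13 and -1.24 in Id1KO_Zrf1KD cells, -3.91, -3.43, -4.33 and -3.87 in Id1KO cells, and -1.06, -1.26, -0.95 and -1.08 in WT cells. All 4 Id1KO arrays lay below the other 8. On 3 of these 4 the probe was well above background. Gata3 was 6.95-fold lower in Id1KO cells than in WT cells (log2 fold change -2.80 ± 0.15, SE, adjusted p = 2.8e-08), and 6.31-fold higher in Id1KO_Zrf1KD cells than in Id1KO cells (adjusted p = 4.9e-08). These sizes depend on the background correction: normexp gave 2.65-fold and 2.47-fold, and the deposited values gave 3.12-fold and 2.94-fold. The log2 difference between Id1KO_Zrf1KD and WT cells was -0.14 (95% confidence interval -0.48 to 0.20, adjusted p = 0.45), which leaves room for a modest difference in either direction.

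Gata2, the related GATA factor of trophoblast giant cells, was also lowest in Id1KO cells, and in Id1KO_Zrf1KD cells it lay between the Id1KO and WT levels. Its levels were -2.31, -2.59, -2.63 and -2.61 in Id1KO_Zrf1KD cells, -3.05, -4.12, -3.95 and -4.14 in Id1KO cells, and -1.24, -1.14, -1.28 and -1.26 in WT cells. The groups did not overlap. Within the Id1KO group replicate 1 lay above the other 3, and within the Id1KO_Zrf1KD group replicate 1 did. The log2 fold change was -2.58 ± 0.20 (SE) in Id1KO against WT cells (adjusted p = 5.5e-07), 1.28 ± 0.20 in Id1KO_Zrf1KD against Id1KO cells (adjusted p = 0.00018) and -1.30 ± 0.20 in Id1KO_Zrf1KD against WT cells (adjusted p = 0.00018). With normexp the first of these was -1.34 and the second 0.45, both past the threshold. The rise was 1.49, 1.55 and 0.95 within the slides.

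Tcfap2c, now named Tfap2c, encodes AP-2 gamma, which maintains the trophoblast and is also made in germ cells. Its levels were 4.21, 4.17, 4.14 and 4.19 in Id1KO_Zrf1KD cells, 3.59, 3.62, 3.53 and 3.60 in Id1KO cells, and 4.55, 4.53, 4.54 and 4.44 in WT cells. The groups did not overlap and each spanned little: the SD was 0.03 in Id1KO_Zrf1KD cells, 0.04 in Id1KO cells and 0.05 in WT cells. The level in Id1KO_Zrf1KD cells was 1.51-fold above Id1KO cells (adjusted p = 1.5e-07) and remained 1.27-fold below WT cells (adjusted p = 1.5e-05). The log2 difference between Id1KO and WT cells was -0.93 ± 0.04 (SE, adjusted p = 3.5e-09), and -1.02, -0.93 and -0.89 within the slides.

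Ets2, an ETS-domain factor needed for trophoblast stem cell renewal, had the same order of groups. Its levels were 1.98, 1.90, 1.86 and 1.96 in Id1KO_Zrf1KD cells, 1.02, 0.89, 1.15 and 1.05 in Id1KO cells, and 2.54, 2.62, 2.45 and 2.59 in WT cells. No array of a group reached into another group. Ets2 was 1.86-fold higher in Id1KO_Zrf1KD cells than in Id1KO cells (adjusted p = 1.8e-07), and against WT cells it was 1.54-fold lower (adjusted p = 3.7e-06). In Id1KO against WT cells the log2 fold change was -1.52 ± 0.06 (SE, adjusted p = 2.4e-09).

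Elf5, an ETS-domain factor that keeps trophoblast stem cells in their lineage and is methylated and silent in embryonic stem cells, was at the edge of detection. It was well above background on 2 of 4 Id1KO_Zrf1KD arrays, 0 of 4 Id1KO arrays and 1 of 4 WT arrays. Its levels were -4.77, -4.53, -4.38 and -4.32 in Id1KO_Zrf1KD cells, -6.65, -6.47, -6.14 and -6.0 in Id1KO cells, and -4.06, -5.31, -5.53 and -5.46 in WT cells. In the processed signal the Id1KO arrays lay below all others, and WT replicate 1 lay above every other array. With the normexp correction this order was lost: the levels were -3.02 to -2.62 in Id1KO_Zrf1KD cells, -3.06 to -2.77 in Id1KO cells and -3.04 to -2.54 in WT cells, and all 3 groups overlapped. In the deposited values the Id1KO arrays, at 6.02 to 6.11, again lay below all others. The WT arrays were at 6.20 to 6.40 there and the Id1KO_Zrf1KD arrays at 6.24 to 6.55. No fold change or test is given for Elf5.

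Ascl2, the imprinted basic helix-loop-helix factor of the spongiotrophoblast, fell in Id1KO cells and was lower still in Id1KO_Zrf1KD cells. Its levels were 1.27, 1.36, 1.25 and 1.31 in Id1KO_Zrf1KD cells, 1.55, 1.57, 1.52 and 1.46 in Id1KO cells, and 2.49, 2.45, 2.54 and 2.55 in WT cells. The groups did not overlap, although the gap between the Id1KO_Zrf1KD and Id1KO arrays was small. Ascl2 was 1.17-fold lower in Id1KO_Zrf1KD cells than in Id1KO cells (log2 fold change -0.23 ± 0.04, SE, adjusted p = 0.00059; -0.23, -0.10 and -0.31 within the slides). Against WT cells the Id1KO_Zrf1KD level was 2.31-fold lower (adjusted p = 1.1e-09). The log2 difference between Id1KO and WT cells was -0.98 ± 0.04 (adjusted p = 4.8e-09).

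Dlx3, a homeobox factor of the placental labyrinth and the epidermis, ran opposite to Gata3. Its levels were -0.56, -0.38, -0.61 and -0.26 in Id1KO_Zrf1KD cells, 0.22, 0.42, 0.16 and 0.48 in Id1KO cells, and -0.30, -0.43, -0.58 and -0.38 in WT cells. All 4 Id1KO arrays lay above the other 8, which overlapped each other. Dlx3 was 1.67-fold higher in Id1KO cells than in WT cells (adjusted p = 4.4e-05) and 1.71-fold lower in Id1KO_Zrf1KD cells than in Id1KO cells (adjusted p = 3.4e-05). The log2 difference between Id1KO_Zrf1KD and WT cells was -0.03 (95% confidence interval -0.25 to 0.19, adjusted p = 0.82).

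**Figure D1:**
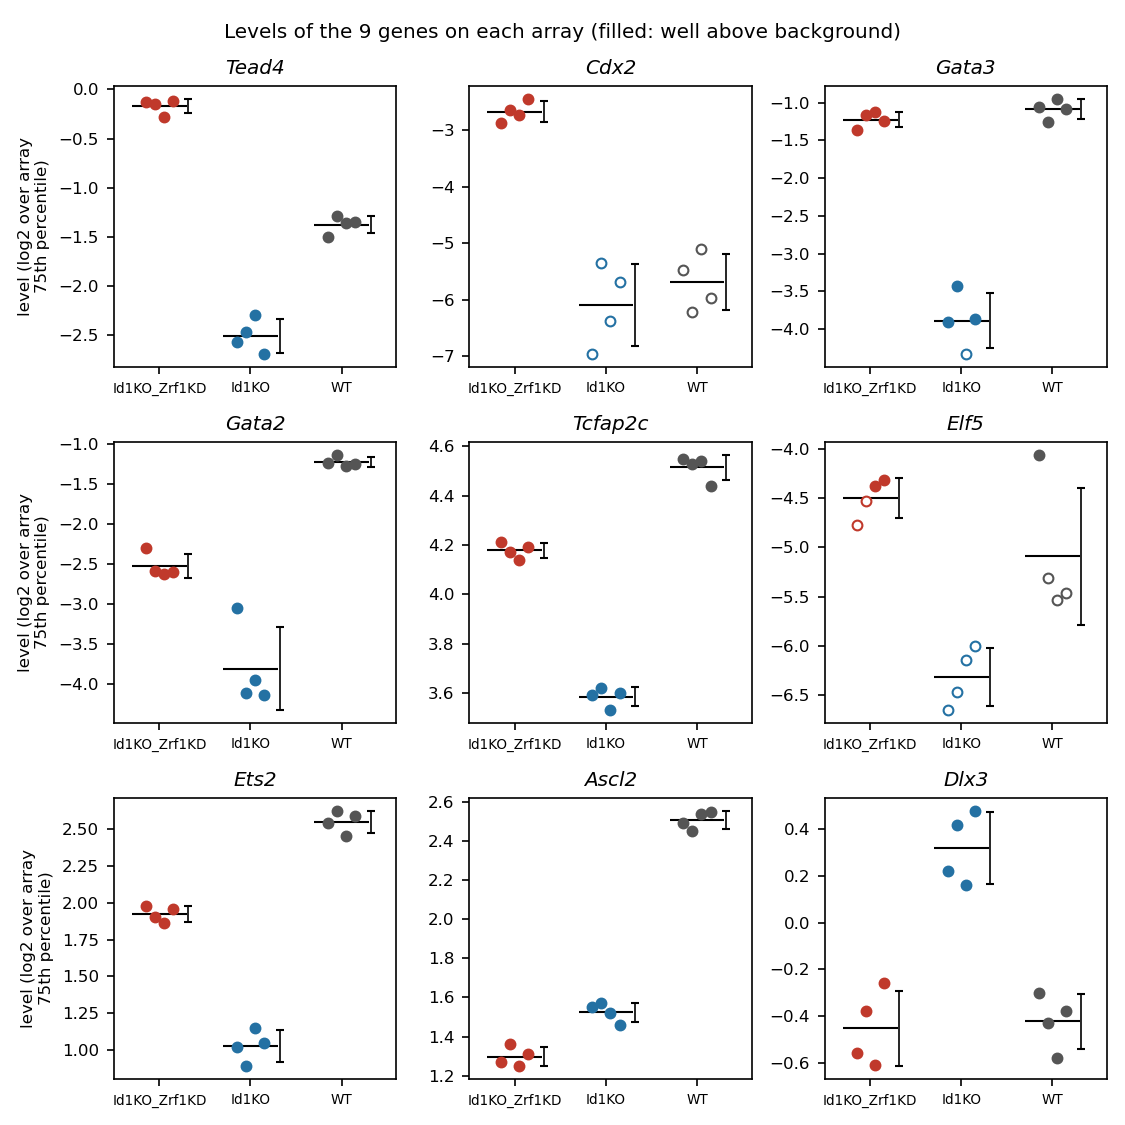
Levels of the 9 genes on each of the 12 arrays, in log2 units relative to the array's 75th percentile, with Id1KO_Zrf1KD (left), Id1KO (middle) and WT (right) in each panel; every panel has its own vertical scale. Filled points were well above background and open points were not, the line is the mean of 4 arrays and the bar its SD; Cdx2 is filled in Id1KO_Zrf1KD alone, and Id1KO is the lowest group for Tead4, Gata3, Gata2, Tcfap2c and Ets2.

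Set side by side, the comparison of Id1KO with WT cells gave 6 of 8 tested members lower and 1 higher, with Cdx2 not called. Over all features, 29.6% were called lower and 42.5% higher, so most features carry a call in this comparison, and the members lean to the lower side. The members' median log2 fold change was -1.06, against 0.15 over all features. The 4 against 4 arrays did not overlap for 7 of the 8, and for 65.3% of all features. In Id1KO_Zrf1KD against Id1KO cells 6 members were higher and 2 lower, and 32.3% and 39.8% of all features were called in those directions. The members' median was 1.09, against -0.09 over all features, and Cdx2 entered these counts and this median only through the arrays on which it was high. The arrays of the 2 groups were fully apart for each of the 8, and for 66.5% of all features. Both comparisons use the same Id1KO arrays, so a high or low value there enters both with opposite sign. In Id1KO_Zrf1KD against WT cells Tead4 and Cdx2 were higher, Gata2, Tcfap2c, Ets2 and Ascl2 lower, and Gata3 and Dlx3 not called. The background there was 32.4% higher and 32.2% lower, and the members' median was -0.24, against -0.02 over all features. The arrays did not overlap for 6 of the 8, and for 60.7% of all features. Here too Cdx2 entered the counts and the median only through the arrays on which it was high. The members' median of each comparison includes a fitted Cdx2 value, which does not measure a fold change.

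**Figure D2:**
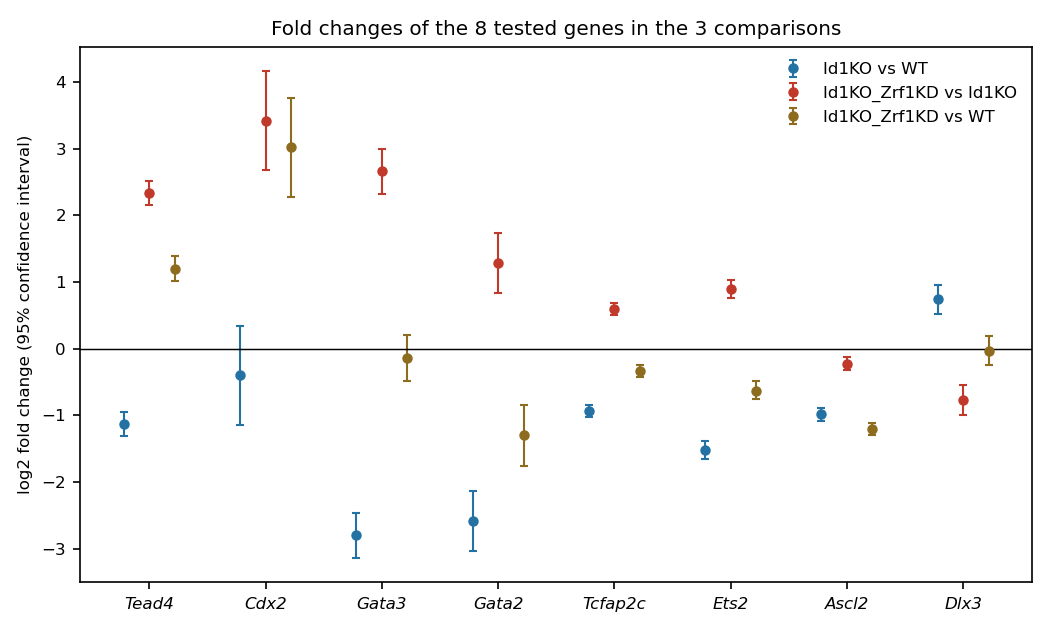
Log2 fold changes of the 8 tested genes with 95% confidence intervals from the limma fit (n = 4 arrays per group) in Id1KO against WT, Id1KO_Zrf1KD against Id1KO and Id1KO_Zrf1KD against WT. The Cdx2 points are fitted values against groups in which it was not well above background and do not measure a fold change. Ascl2 is called and lies below 0 in all 3 comparisons, and Dlx3 runs opposite to Gata3 in the first and second.

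The sizes differed between scalings for the dim genes more than for the bright ones. The median log2 fold change of all features in Id1KO against WT cells was 0.15 with the 75th-percentile scaling, 0.16 with normexp, 0.02 after quantile normalization and 0.01 in the deposited values. The called members other than Cdx2 kept their direction and their call under these 4 scalings. Cdx2 is left out because it passed the filter only through the arrays on which it was high. For the dim genes Gata3 and Gata2 the log2 fold change in Id1KO against WT cells ranged from -3.09 to -1.41 and from -2.91 to -1.34. For Ets2 and Ascl2 it ranged from -1.54 to -1.5 and from -1.0 to -0.98.

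**Figure D3:**
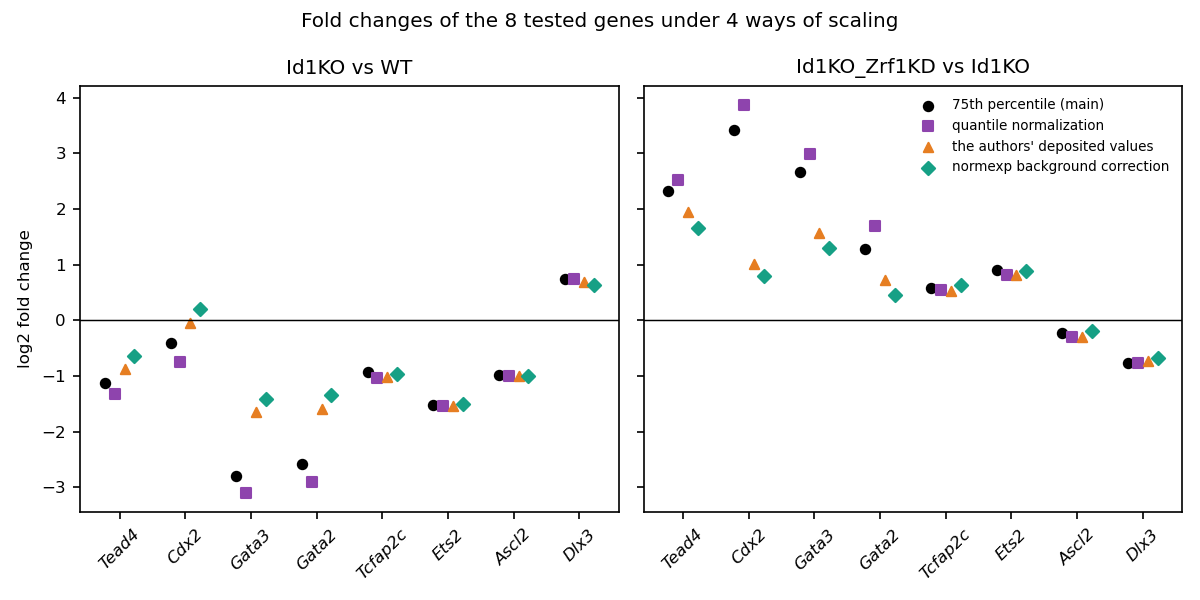
Log2 fold changes of the 8 tested genes under 4 scalings (75th percentile, quantile normalization, the authors' deposited values and normexp) in Id1KO against WT (left) and Id1KO_Zrf1KD against Id1KO (right). The markers nearly coincide for Tcfap2c, Ets2, Ascl2 and Dlx3 and spread for Tead4, Cdx2, Gata3 and Gata2. The Cdx2 markers rest on Id1KO arrays, and on the left also on WT arrays, that were not well above background, and do not measure a fold change.

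The features whose levels ran most like each member's over the 12 arrays were ranked by Pearson's r among 13495 features with a gene symbol. The arrays fall into 3 groups, so such an r mainly records the order and spacing of the group means. Furin, a protease of the trophoblast marker list, was closest to Gata3 (r = 0.998), followed by Anks1 and Cpe. Chpt1, Chga and Lbp were closest to Ets2 (r = 0.998 for the first), Usp4, Scarf2 and Podxl to Tead4 (0.996), and Tuba3a, Ttc9b and Klk1b5 to Tcfap2c (0.997). Kctd9, Erf and Slc12a2 were closest to Cdx2 (0.992), Rhbdl3, Hmx1 and Pqbp1 to Gata2 (0.994), and Pnck, Fank1 and Xiap to Ascl2 (0.998). Cdx2 was not well above background on any Id1KO or WT array, so its ranking rests partly on dim values. Dlx3 had the loosest match, with Adh4 (0.975), Wdr38 and Med31.

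Other genes of the trophoblast programme were read from lists chosen with earlier results of these data known. Over all features, 42.5% were called higher and 29.6% lower in Id1KO against WT cells. These shares were 32.3% and 39.8% in Id1KO_Zrf1KD against Id1KO cells, and 32.4% and 32.2% in Id1KO_Zrf1KD against WT cells. Of 18 further trophoblast regulators, 10 fell and 4 rose in Id1KO against WT cells (median log2 fold change -0.29), 14 rose and 2 fell in Id1KO_Zrf1KD against Id1KO cells (median 0.93), and 9 rose and 5 fell in Id1KO_Zrf1KD against WT cells. Eomes, the T-box partner of Cdx2, was at -0.06 ± 0.12 in Id1KO_Zrf1KD cells, -0.90 ± 0.11 in Id1KO cells and -0.15 ± 0.15 in WT cells (SD, n = 4 each), with the lowest level in Id1KO cells, as for Gata3. It was 1.79-fold higher in Id1KO_Zrf1KD than in Id1KO cells (adjusted p = 5.5e-06). Fosl1, an AP-1 subunit of giant cells, was 9.17-fold higher in Id1KO_Zrf1KD than in WT cells (adjusted p = 5.6e-10; log2 fold change 3.20, and 1.70 with normexp and with the deposited values). Among the regulators that were lower than in WT cells, Esx1 was 1.86-fold lower in Id1KO_Zrf1KD cells (adjusted p = 6.7e-06). Of 20 tested trophoblast marker genes, 13 fell and 4 rose in Id1KO against WT cells (median -0.34), 15 rose and 3 fell in Id1KO_Zrf1KD against Id1KO cells (median 0.74), and 11 rose and 4 fell in Id1KO_Zrf1KD against WT cells. Cdkn1c went against most of these markers. It was 3.64-fold higher in Id1KO than in WT cells (adjusted p = 3.4e-09). In Id1KO_Zrf1KD cells it was 1.81-fold lower than in Id1KO cells (adjusted p = 2e-06). Tpbpa and Ctsq, markers of the spongiotrophoblast and of sinusoidal giant cells, were not well above background on any of the 12 arrays. Nr2f2 among the regulators, and Plac1 and Igf2 among the markers, passed the filter only through the Id1KO_Zrf1KD arrays. These genes entered the counts and medians above only through the group where they were high.

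Most genes of the Hippo pathway around Tead4 rose in Id1KO_Zrf1KD against Id1KO cells. Of 18 tested TEAD partners, Hippo kinases and TEAD target genes, 14 passed the test as higher and 0 as lower in that comparison (median 0.81), and 1 rose and 8 fell in Id1KO against WT cells (median -0.23). For this and the next lists, 32.3% of all features were called higher and 39.8% lower in Id1KO_Zrf1KD against Id1KO cells. In Id1KO against WT cells these shares were 42.5% and 29.6%. Vgll4, 1 of the 14 higher genes, passed the filter only through the Id1KO_Zrf1KD arrays, where it was high. Cyr61, a secreted matricellular protein and YAP target, was 13.3-fold higher in Id1KO_Zrf1KD than in Id1KO cells (adjusted p = 6.1e-12). Ctgf, of the same family, was 7.51-fold higher (adjusted p = 6.1e-12), and Amot, which binds YAP, 3.43-fold (adjusted p = 4.5e-10). The coactivators themselves differed less: Yap1 was 1.30-fold higher (adjusted p = 0.0024) and Wwtr1, which encodes TAZ, 1.31-fold (adjusted p = 0.00013; the Wwtr1 probe lacks a value on 1 Id1KO array). Against WT cells Wwtr1 was 1.42-fold lower in Id1KO_Zrf1KD cells (adjusted p = 1.3e-05). Among 19 tested relatives of the members by protein family, 11 rose and 3 fell in Id1KO_Zrf1KD against Id1KO cells. Cdx1, a homeobox relative of Cdx2, was 5.47-fold higher there (adjusted p = 2.0e-10) and differed by 0.02 log2 units between Id1KO_Zrf1KD and WT cells (adjusted p = 0.85). Among 13 tested pluripotency factors and silencers, several of which hold trophoblast genes down in embryonic stem cells, 9 rose and 1 fell in Id1KO_Zrf1KD against Id1KO cells (median 0.37), and 2 rose and 8 fell in Id1KO against WT cells. Esrrb, an orphan nuclear receptor of both embryonic and trophoblast stem cells, was 1.57-fold higher in Id1KO_Zrf1KD than in Id1KO cells (adjusted p = 2.4e-07).

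**Figure D4:**
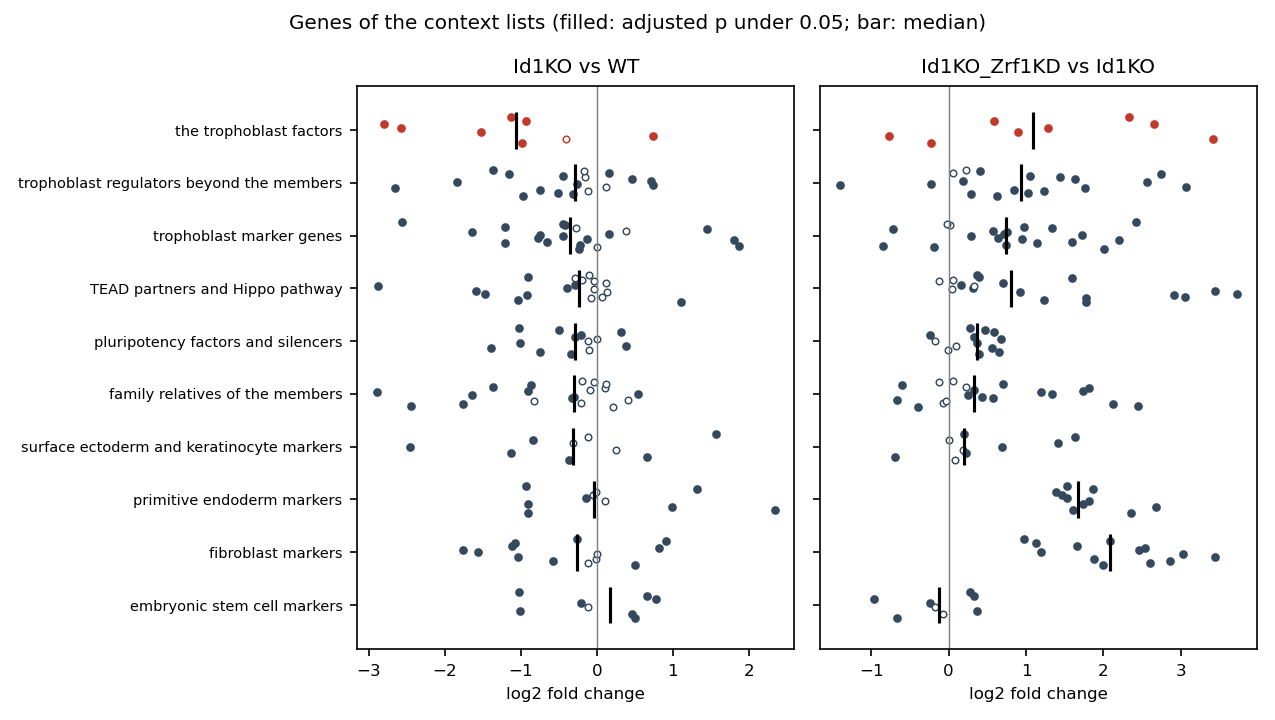
Log2 fold changes of the 8 tested trophoblast factors (red) and of the genes of the context lists (dark) in Id1KO against WT (left) and Id1KO_Zrf1KD against Id1KO (right); filled points passed an adjusted p of 0.05, and bars are medians. In the right panel all 10 primitive endoderm and all 13 fibroblast genes lie above 0, with medians of 1.67 and 2.08.

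Markers of several other cell types also differed between the groups. In bulk RNA, a change in the number of cells of a type and a change in RNA per cell cannot be told apart. All 10 primitive endoderm markers and all 13 fibroblast markers rose in Id1KO_Zrf1KD against Id1KO cells. Over all features, 32.3% were called higher and 39.8% lower there. In Id1KO against WT cells 3 endoderm markers rose and 4 fell (median log2 fold change -0.03). There 3 fibroblast markers rose and 7 fell (median -0.26), and 2 surface ectoderm markers rose and 4 fell (median -0.31). The shares over all features were 42.5% higher and 29.6% lower. The summed level of the endoderm list was 8.33 to 8.38 in Id1KO_Zrf1KD cells, 6.76 to 6.82 in Id1KO cells and 7.58 to 7.67 in WT cells, as log2. Each such sum adds linear levels, so the brightest genes weigh most. Sparc alone was at 8.02 in Id1KO_Zrf1KD cells, 6.48 in Id1KO cells and 7.42 in WT cells. Its log2 difference between Id1KO_Zrf1KD and WT cells was 0.60 with the probe used and -0.64 with its other probe (adjusted p = 0.086). The summed level of the fibroblast list was 6.64 to 6.68 in Id1KO_Zrf1KD cells, 4.76 to 4.86 in Id1KO cells and 5.21 to 5.25 in WT cells. Lum, 1 of its members, was not well above background on any Id1KO or WT array and passed the filter only through the Id1KO_Zrf1KD arrays. Of 9 tested surface ectoderm markers, from a tissue that also expresses Dlx3 and Tcfap2c, 5 rose and 1 fell in Id1KO_Zrf1KD against Id1KO cells, with summed levels of 5.68 to 5.73 in Id1KO_Zrf1KD cells, 5.55 to 5.65 in Id1KO cells and 5.46 to 5.52 in WT cells. Krt5, a surface ectoderm marker that rose, passed the filter only through the Id1KO_Zrf1KD arrays. The summed trophoblast markers were at 6.65 to 6.71 in Id1KO_Zrf1KD cells, 5.78 to 5.79 in Id1KO cells and 5.92 to 6.0 in WT cells. The part of these other cell types in the members' changes was not tested. Each of 8 embryonic stem cell markers was well above background on all 4 arrays of every group. In Id1KO against WT cells 4 rose and 3 fell (median 0.17), and in Id1KO_Zrf1KD against Id1KO cells 3 rose and 3 fell. Tdgf1, a Nodal coreceptor, was 1.94-fold lower (adjusted p = 3.7e-08) and Dppa5a 1.59-fold lower (adjusted p = 2.2e-06; its log2 fold change was -0.67, and -0.11 in the deposited values). Among those that rose, Nanog was 1.29-fold higher (adjusted p = 6e-05) and Utf1 1.26-fold (adjusted p = 0.00099). The other Nanog probe gave -0.16 log2 units (adjusted p = 0.057). Pou5f1, which CDX2 represses in the trophectoderm, was not called (-0.18 ± 0.17 log2 units, SE, adjusted p = 0.36).

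As to the arrays, Dnajc2 (Zrf1) was at -0.27 ± 0.08 in Id1KO_Zrf1KD cells, 1.89 ± 0.11 in Id1KO cells and 2.0 ± 0.12 in WT cells (SD, n = 4 each). The single Id1 probe was not lower in Id1KO than in WT cells (log2 fold change 0.37, adjusted p = 0.052); which part of the gene was deleted is not stated in the labels, and that probe does not check the genotype. The 75th percentile of the signal was 554.0 to 596.5 units on Id1KO_Zrf1KD arrays, 393.3 to 491.8 on Id1KO arrays and 440.7 to 550.2 on WT arrays, and its part in the results was not tested. With 4 arrays per group, precision is limited by their number.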

How the data were processed

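RNA of 12 embryonic stem cell samples was hybridised to one-colour arrays, 4 per group. Per the file headers, the authors' scanner files (Agilent Feature Extraction 10.7.3.1) hold each spot's intensity, including a processed signal that is background subtracted, and flags of 0 or 1 (a score). The authors' deposited value matrix holds log2 values with a median of 6.55 in every column; its background correction and normalization are not stated in the labels or headers. Probe coordinates are those of the files (mm9), and promoter windows are from RefSeq (GRCm38.p6).

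The processed signal was put on a log2 scale, lowered by the array's 75th percentile over non-control spots and averaged over the spots of a probe that carried no outlier mark. A probe was kept if 50% or more of its spots were well above background on every array of some group (30885 of 55681 probes), and the brightest kept probe stood for each gene name. The fit used limma 3.58.1 (R 4.3.3, data.table package, version 1.17.8) with a mean per group, two-sided, Benjamini-Hochberg adjusted within a comparison at 0.05, after a test on simulated data. Named were all 9 members, from each list and comparison the 2 genes of smallest adjusted p, a set of fixed genes, and the 3 features most like each member. Not every gene so chosen is printed. The members, lists and rules were chosen with earlier results of these data known. Alternatives were the scaling, the filter, the handling of several probes, slide and replicate blocks, and leaving out each array.

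Replicate numbers were checked as pairs: deviations from the group means correlated with a median of -0.20 for arrays of 1 number (-0.44 to 0.40) and 0.24 for arrays of 1 slide, so numbers were not used as pairs.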

Additional observations from a re-analysis of the deposited data

Results flagged for a closer look

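Of 27 sets of 4 arrays, for 9 genes in 3 groups, 2 held an array whose gap to its nearest neighbour was a large share of the whole range, where chance gives about 1 in 20. For Gata2, Id1KO_Zrf1KD replicate 1 was the highest of its group at -2.31, with the other arrays between -2.63 and -2.59 (share of the range 0.875). Without it the log2 fold change of Gata2 in Id1KO_Zrf1KD against Id1KO cells was 1.21. For Elf5, WT replicate 1 was at -4.06 with the other WT arrays between -5.53 and -5.31 (share 0.85). It was also the 1 WT array on which Elf5 was well above background.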

How the results depend on the processing

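Over 24 member fold changes with a test, no called fold change turned its sign or lost its call under the alternatives that give a test. For Cdx2 a kept call does not show stability, since Cdx2 passed the filter only through the arrays on which it was high. The changes of sign were all in differences that were not called. Cdx2 in Id1KO against WT cells was 0.20 with normexp and 0.52 within slide 2. Gata3 in Id1KO_Zrf1KD against WT cells was 0.09 within slide 2. Dlx3 in Id1KO_Zrf1KD against WT cells was 0.05 within slide 2, and from -0.09 to 0.02 when 1 array was left out, turning its sign without WT replicate 1 (0.01), Id1KO_Zrf1KD replicate 1 (0.01) or Id1KO_Zrf1KD replicate 3 (0.02). With only probes well above background on all 12 arrays, Cdx2 and Gata3 were not tested. In that setting 5 members were lower in Id1KO against WT cells, as were 31.9% of its 19268 features. There 1 member was higher in Id1KO_Zrf1KD against WT cells and 4 were higher in Id1KO_Zrf1KD against Id1KO cells. With the main filter, 32.4% and 32.3% of all features were called higher in those 2 comparisons. The replicate block changed no member's call, and with it 9286 features were called higher and 6493 lower in Id1KO against WT cells, 7088 and 8701 in Id1KO_Zrf1KD against Id1KO cells, and 7072 and 6996 in Id1KO_Zrf1KD against WT cells. In the check of the pairing, 1 of 12 arrays was closest to an array of its own number. Signal over background limits Cdx2, Elf5, Gata3 and Gata2, and a single probe per gene leaves other transcript ends unread.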
